A study of Homo sapiens with 6 samples.

Results

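The long non-coding RNAs (lncRNAs) MALAT1, NEAT1, KCNQ1OT1 and NORAD were followed through a knockdown experiment in a leukaemia cell line. They are 4 of 62703 annotated genes with a row in each count table, were taken by name from a gene name table, and had 1 gene ID each. All 4 passed the filter on low counts, which left 16929 genes for testing. The cells were SEM, an established line of B-cell acute lymphoblastic leukaemia that carries the KMT2A::AFF1 fusion. In the knockdown group (KD, n = 3), the cells received a pair of Dicer-substrate siRNAs (DsiRNAs) against the back-splice junction of AK_8_2, a circular RNA made from the fusion transcript. In the negative control group (NC, n = 3), the cells received a commercial DsiRNA with no target. Both groups had a reverse lipofection and, 24 h later, a forward one, and their total RNA was sequenced after depletion of globin transcripts.

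All libraries came from 1 cell line, the knockdown was transient, and both duplexes were given together, so an effect of 1 duplex cannot be told apart from one of the other. The gene-level counts hold no row for the back-splice junction, so they give no check of the knockdown itself. Of 12 B-cell precursor markers, 11 averaged at least 1 CPM (a gene's counts scaled to the size of its library), all except DNTT. Their summed level was 1633 to 1935 CPM in KD and 1718 to 2000 CPM in NC. Summed markers of stromal cells were at 78.5 to 99.8 CPM in KD and 83.2 to 99.4 CPM in NC, those of myeloid cells at 20.6 to 26.98 CPM in KD and 22.1 to 25.1 CPM in NC, and those of T, erythroid and epithelial cells at up to 13.8 CPM in KD and 13.5 CPM in NC. Gene counts per library totalled 16531673 to 26694160 in KD and 14750579 to 24186646 in NC. Replicate 1 of both groups stood apart: 50.03% of its records in KD and 48.6% in NC lay outside annotated features, against 11.3% to 17.3% in the other 4 libraries. It had counts on 53121 genes in KD and 52077 in NC, against 30641 to 32311 in the other 4. In KD replicate 3, 31.5% of records were aligned to several places and mitochondrial ribosomal RNA made up 6.79% of gene counts, against at most 17.3% and 1.34% in the other 5 libraries.

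Long non-coding RNAs act as RNA molecules, and many stay in the nucleus. MALAT1 gathers in nuclear speckles, bodies rich in splicing factors, while the long form of NEAT1 is the scaffold of paraspeckles and a short form shares its 5′ end. KCNQ1OT1 is read from the paternal allele, antisense to KCNQ1, and in cis silences genes of its imprinted domain. NORAD is mainly cytoplasmic and binds the RNA-binding protein PUM2 through repeated Pumilio elements.

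In the GENCODE 29 annotation of GRCh38, MALAT1 (ENSG00000251562.10) is a long intergenic gene at chr11:65497688-65506516 on the plus strand. NEAT1 (ENSG00000245532.11) lies on the same strand, upstream of it, at chr11:65422774-65445540. KCNQ1OT1 (ENSG00000269821.1) is an unspliced antisense gene at chr11:2608328-2699994 on the minus strand, wholly within the span of KCNQ1. NORAD (ENSG00000260032.2) is a single-exon gene at chr20:36045622-36050960 on the minus strand. The exons of MALAT1, NEAT1, KCNQ1OT1 and NORAD cover 8829, 22767, 91667 and 5339 bases.

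The sequence feature that sets NORAD apart from the other 3 is its density of Pumilio elements, searched as TGTANATA on the sense strand. NORAD-201 held 15 matches in 5339 bases, or 2.81 per kb. NEAT1-202 held 6 matches, KCNQ1OT1-201 held 9 and MALAT1-202 held 0. Among the longest transcripts of 27880 genes, taken where they reached 1000 bases, 25.5% held at least 1 match and 0.0251% were as dense as NORAD or denser. In 3 places NORAD had a pair of matches with starts 9 bases apart, shown because this close pairing recurs along the transcript. They lie at chr20:36049491-36049531, chr20:36048294-36048334 and chr20:36047658-36047698 and are written 5′ to 3′ as read on the minus strand of GRCh38 from the GENCODE 29 transcript, with the matches in capitals.
NORAD pair 1: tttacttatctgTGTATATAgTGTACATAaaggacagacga
NORAD pair 2: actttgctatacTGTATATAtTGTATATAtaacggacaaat
NORAD pair 3: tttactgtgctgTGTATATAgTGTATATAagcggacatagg

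MALAT1 and the long form of NEAT1 share another kind of element. Their 3′ ends carry U-rich runs and an A-rich tract that fold into a triple helix, and RNase P cuts next to it in place of polyadenylation. The stretches below, 98 bases each, run from 10 bases before the first U-rich run to the end of the A-rich tract. The MALAT1 element lies at chr11:65506019-65506116 and the NEAT1 element at chr11:65445443-65445540, both on the plus strand of GRCh38 (GENCODE 29). The capitals mark the U-rich runs, written with T, and the searched part of the A-rich tract, before which MALAT1 has further A letters in lower case.
MALAT1 element: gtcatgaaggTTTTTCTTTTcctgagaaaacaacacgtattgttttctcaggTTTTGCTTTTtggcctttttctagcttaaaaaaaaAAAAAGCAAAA
NEAT1 element: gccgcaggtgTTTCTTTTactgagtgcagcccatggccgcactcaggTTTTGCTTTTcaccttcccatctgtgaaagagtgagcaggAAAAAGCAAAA
The NEAT1 element ended at the last base of transcript NEAT1-202, and the MALAT1 element ended 353 bases before the annotated end of MALAT1-202. TTTTGCTTTT followed within 40 bases by AAAAAGCAAAA occurred in 3 of the 27880 transcripts, those of MALAT1, NEAT1 and RETREG3. A match is a description of the letters, and the counts do not measure folding or cleavage.

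Per length, MALAT1 was the highest of the 4 RNAs and KCNQ1OT1 the lowest. With libraries in the order of replicates 1, 2 and 3, MALAT1 had 362, 480 and 537 CPM per kb of exon in KD, against 382, 737 and 460 in NC. NORAD had 51.0, 59.7 and 58.5 CPM per kb in KD, and 52.4, 59.1 and 57.4 in NC. NEAT1 had 4.89, 7.72 and 8.63 CPM per kb in KD, and 5.40, 12.5 and 8.62 in NC.
KCNQ1OT1 lay far below, with 0.559, 0.352 and 0.209 CPM per kb in KD, and 0.455, 0.230 and 0.426 in NC. The order MALAT1, NORAD, NEAT1, KCNQ1OT1 held in 6 of 6 libraries, and no RNA's range over the libraries overlapped that of its neighbour in the order. The level of MALAT1 was 7.10 to 12.5 times that of NORAD, and that of NORAD 4.71 to 10.4 times that of NEAT1. The gap between NEAT1 and KCNQ1OT1 was the least steady, at 8.74 to 54.6 times.

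Set among the 2393 tested lncRNA genes with a length, MALAT1 ranked first per length in every library and NORAD took ranks 8 to 10. NEAT1 ranked 59 to 261 and KCNQ1OT1 1790 to 2231, below the median lncRNA, whose level was 0.905 to 1.598 CPM per kb in KD and 0.961 to 1.58 in NC. Per length, MALAT1 and NORAD were thus among the most abundant lncRNAs of these libraries, and KCNQ1OT1 was not. By raw count MALAT1 ranked between 6 and 12 among all genes of a library, with 0.344% to 0.426% of the gene counts in KD and 0.367% to 0.618% in NC. The place of NEAT1 depends on its length: gene-level counts do not separate its short transcript NEAT1-201 (chr11:65422774-65426457, 3684 bases) from the long one. Divided by the short length, NEAT1 would have 30.2 to 53.3 CPM per kb in KD and 33.4 to 77.5 in NC, which overlaps the range of NORAD and puts NEAT1 above NORAD in NC replicate 2.

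**Figure D1:**
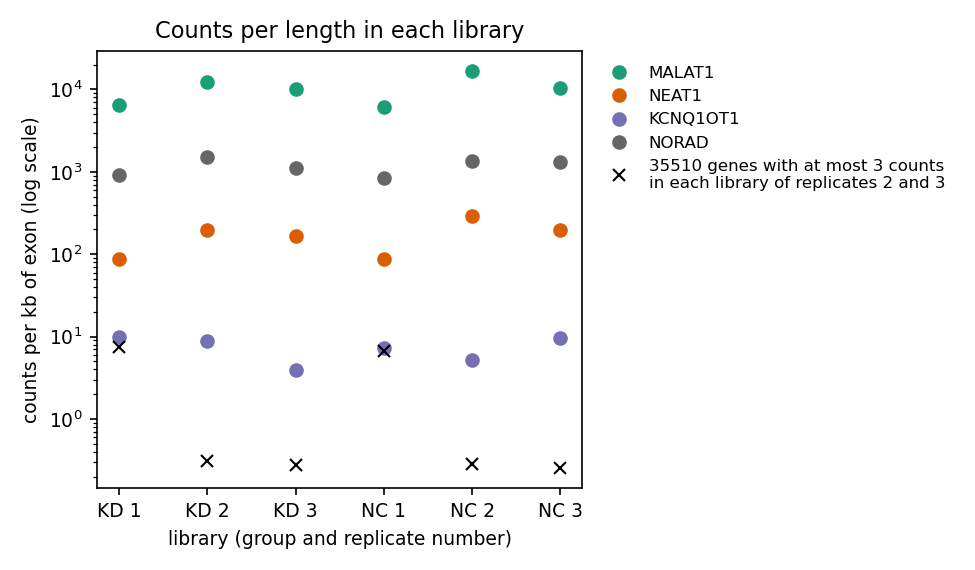
Counts per kb of exon (log axis) of the 4 RNAs in each library, KD replicates left and NC replicates right; crosses give the summed counts over the summed length of 35510 genes that had at most 3 counts in each library of replicates 2 and 3. MALAT1 sits highest and KCNQ1OT1 lowest in 6 of 6 libraries, and in replicate 1 the cross rises to 7.56 in KD and 6.61 in NC, close to KCNQ1OT1 at 9.93 and 7.32.

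The first comparison asked whether any of the 4 RNAs changed when AK_8_2 was targeted. None of them passed the test. At a Benjamini-Hochberg adjusted p under 0.05, the quasi-likelihood F test of edgeR called 0 of 16929 genes (0%), while 52 genes had an unadjusted p under 0.05. DESeq2 called 1, a pseudogene (RPS27AP16) that is not among the 4, and limma-voom 0. The p-values rest on the spread between libraries, which the series' design text calls independent replicates without saying how they were made. In bulk RNA, a change in the number of cells that hold a transcript and a change in its amount per cell cannot be told apart.

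MALAT1 had 3199, 4234 and 4742 CPM in KD, against 3369, 6506 and 4060 CPM in NC. The groups overlapped, NC replicate 2 was the highest library, and replicate 1 was the lowest in each group. The means were 4058 ± 786 CPM in KD and 4645 ± 1649 CPM in NC (SD, n = 3 each). The fitted log2 fold change was -0.19 ± 0.28 (SE), with a 95% interval of -0.85 to 0.46 and an adjusted p of 1.00 by edgeR's quasi-likelihood test. The interval spans folds of 0.553 to 1.38.

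NEAT1 followed the same pattern over the libraries, with 111, 176 and 196 CPM in KD, against 122.9, 286 and 196 CPM in NC. NC replicate 2 again stood highest, and the groups overlapped. The means were 161 ± 44.4 CPM in KD and 202 ± 81.4 CPM in NC (SD, n = 3 each). Its log2 fold change was -0.32 ± 0.33 (SE; 95% interval -1.11 to 0.46), at an adjusted p of 1.00 by the same edgeR test.

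KCNQ1OT1 ran the other way, with 51.2, 32.3 and 19.2 CPM in KD, against 41.7, 21.1 and 39.1 CPM in NC. Its lowest libraries were KD replicate 3 and NC replicate 2, its highest was KD replicate 1, and the NC values lay within the range of the KD values. The means were 34.2 ± 16.1 CPM in KD and 34.0 ± 11.2 CPM in NC (SD, n = 3 each), with a log2 fold change of 0.01 ± 0.39 (SE; 95% interval -0.90 to 0.93; edgeR adjusted p 1.00).

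NORAD was the steady one of the 4, with 272, 319 and 312 CPM in KD, against 280, 316 and 306 CPM in NC. Replicate 1 was the lowest library of each group, and the groups overlapped. The means were 301 ± 25.1 CPM in KD and 301 ± 18.5 CPM in NC (SD, n = 3 each). The log2 fold change was 0.00 ± 0.11 (SE; 95% interval -0.26 to 0.26; edgeR adjusted p 1.00), which spans folds of 0.836 to 1.20. When the replicate number was a block, the NORAD interval narrowed to -0.09 to 0.09, or folds of 0.938 to 1.07.

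Counting error alone was small: the standard deviation of a Poisson count was at most 0.430% of the MALAT1 count in any library and 3.31% to 5.23% of the KCNQ1OT1 count. MALAT1 counts were 56831, 107790 and 90347 in KD, against 54183, 149579 and 92868 in NC. For KCNQ1OT1 the libraries held 910, 822 and 365 counts in KD, against 671, 484 and 894 in NC.

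**Figure D2:**
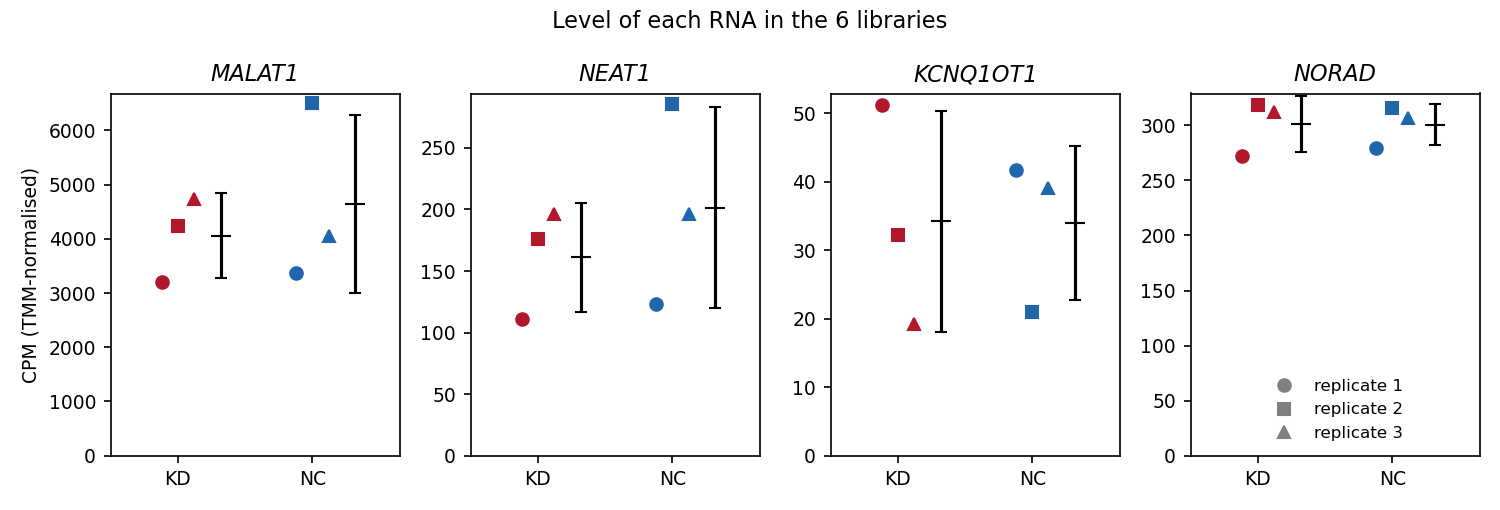
CPM of each RNA in the 3 KD libraries (red, left) and the 3 NC libraries (blue, right), with TMM-normalised library sizes; marker shapes give the replicate number and black bars the mean and SD of each group. All 4 pairs of groups overlap, and NC replicate 2 is highest for MALAT1 (6506 CPM) and NEAT1 (286 CPM) while it is second lowest for KCNQ1OT1 (21.1 CPM).

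Set against one another by replicate number, the KD and NC libraries differed in opposite directions. The counts hardly separate numbers 2 and 3, so the matching there rests on the sample titles. In replicate 2, MALAT1 was lower in KD than in NC by 0.62 on the log2 scale (0.651-fold) and NEAT1 lower by 0.70 (0.615-fold), while KCNQ1OT1 was 0.61 higher in KD (1.53-fold). In replicate 3, MALAT1 was 0.22 higher in KD (1.17-fold), NEAT1 differed by 0.00, and KCNQ1OT1 had a difference of -1.03 (0.491-fold). In replicate 1 the differences were -0.07 for MALAT1, -0.14 for NEAT1 and 0.30 for KCNQ1OT1.
The differences of NORAD stayed between -0.04 and 0.03 in all 3 replicate numbers. No member had the same sign in all 3, against 25.7% of the tested genes. KD and NC did not overlap for 581 genes, or 3.43%, and for 0 of the 4 members.

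The differences of MALAT1, NEAT1 and KCNQ1OT1 in replicate 2, and of KCNQ1OT1 in replicate 3, were wide beside those of other well-counted genes. Of 9293 genes that averaged at least 10 CPM, 0.0968% differed in replicate 2 as far from 0 as NEAT1 or farther, 0.269% as far as MALAT1 and 0.291% as far as KCNQ1OT1. In replicate 3, 0.0861% of these genes differed as far as KCNQ1OT1 and 12.5% as far as MALAT1. The central 90% of the genes lay between -0.25 and 0.21 in replicate 2 and between -0.27 and 0.23 in replicate 3, on the same log2 scale. For NORAD, 74.8% to 90.2% of the genes differed as far or farther. These differences depend on how numbers 2 and 3 are matched. With KD replicate 2 set beside NC replicate 3, MALAT1 had 4234 against 4060 CPM and KCNQ1OT1 32.3 against 39.1 CPM. With KD replicate 3 beside NC replicate 2, MALAT1 had 4742 against 6506 CPM and KCNQ1OT1 19.2 against 21.1 CPM.

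**Figure D3:**
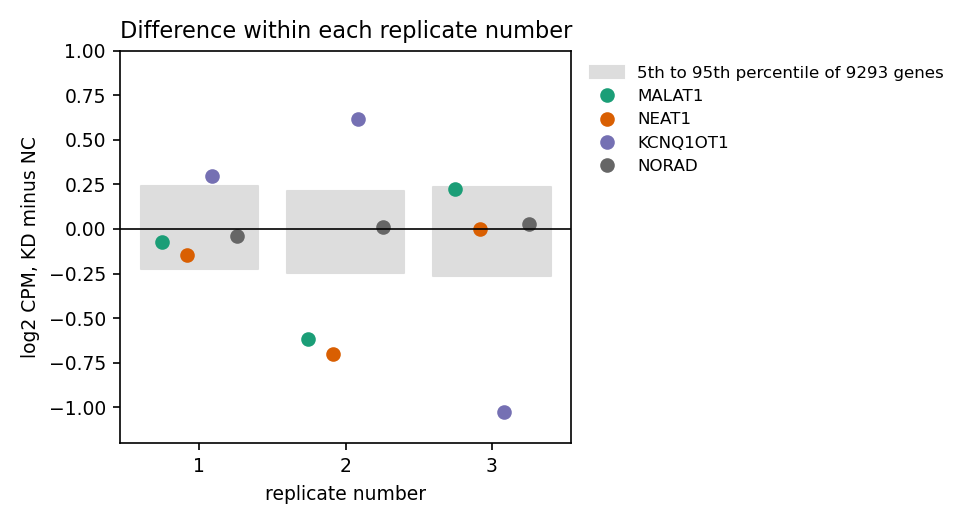
Difference in log2 CPM, KD minus NC, of each RNA within each replicate number (points), with the 5th to 95th percentile of 9293 genes averaging at least 10 CPM (grey). MALAT1 (-0.62) and NEAT1 (-0.70) fall below the grey band in replicate 2, where KCNQ1OT1 (0.61) lies above it, and KCNQ1OT1 (-1.03) falls below it in replicate 3. The matching of numbers 2 and 3 rests on the sample titles, as the counts hardly separate them.

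With a term for the replicate number (a block), edgeR's quasi-likelihood test called 29 of 16929 genes (0.171%), and again none of the 4. Log2 fold changes were -0.16 for MALAT1 (95% interval -1.10 to 0.79), -0.29 for NEAT1 (-1.02 to 0.44), -0.01 for KCNQ1OT1 (-1.92 to 1.89) and 0.00 for NORAD. Which replicate numbers entered this fit decided its calls. Without replicate 3, 73 of 29966 genes were called (0.244%), among them MALAT1 at -0.34 (adjusted p 1.03e-04), NEAT1 at -0.44 (adjusted p 9.31e-08) and KCNQ1OT1 at 0.45 (adjusted p 2.39e-04), all by edgeR's quasi-likelihood test. In that fit 0.157% of genes were called higher and 0.0868% lower.
Without replicate 2, the same test called 119 of 29982 genes (0.397%) and none of the 4, with MALAT1 at 0.06, NEAT1 at -0.08 and KCNQ1OT1 at -0.34. Without replicate 1 it called 5 of 16344 genes (0.0306%), namely H2AC12, RNU4-2, RPS23P8, RPS27AP16 and ENSG00000237550.7, and none of the 4. Each of these fits has 4 libraries and 1 residual degree of freedom per gene. The filter on low counts was run anew in each, and without replicate 2 or 3 genes counted mainly in replicate 1 could pass it. The shares called are therefore over unlike sets of genes. Without replicate 3, the 95% intervals were -0.47 to -0.22 for MALAT1 and -0.56 to -0.31 for NEAT1. The differences in replicates 1 and 2 given above lay outside them, at -0.07 and -0.62 for MALAT1 and -0.14 and -0.70 for NEAT1. For MALAT1 and NEAT1 the small p-values of that fit therefore do not measure the spread between replicate numbers. For KCNQ1OT1 the interval was 0.28 to 0.62, and its differences of 0.30 and 0.61 in replicates 1 and 2 lay within it. Its difference in replicate 3, at -1.03, did not enter that fit. In the fit with no block, the estimate for MALAT1 was 0.15 and that for NEAT1 0.03 without NC replicate 2, and that for KCNQ1OT1 was -0.39 without KD replicate 1.

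**Figure D4:**
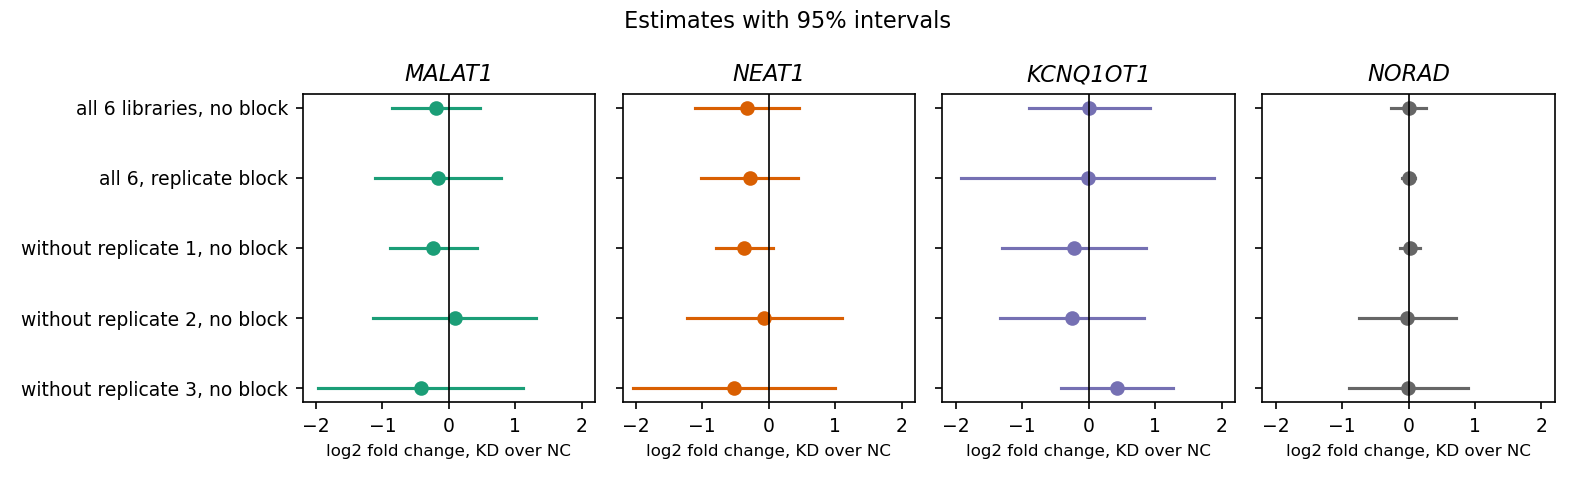
Log2 fold change, KD over NC, with 95% intervals (lines) from edgeR for each RNA: all 6 libraries without and with the replicate block, and 4 libraries with 1 replicate number left out and no block. All intervals drawn include 0, and the NORAD interval with the block (-0.09 to 0.09) is the narrowest.

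The unevenness of MALAT1, NEAT1 and KCNQ1OT1 between libraries was itself wide beside that of the 9293 genes averaging at least 10 CPM. Over the 6 libraries the SD of log2 CPM was 0.37 for MALAT1, 0.50 for NEAT1, 0.56 for KCNQ1OT1 and 0.10 for NORAD, beside a median of 0.15 over the 9293 genes. In the 4 libraries of replicates 2 and 3 alone, the SD was 0.31, 0.31 and 0.49 for MALAT1, NEAT1 and KCNQ1OT1, and 0.02 for NORAD. Among these 4 libraries, 97.6% of the genes had a smaller SD than MALAT1, 97.5% a smaller one than NEAT1, 99.6% a smaller one than KCNQ1OT1 and 2.31% a smaller one than NORAD.

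MALAT1 and NEAT1 moved together over the libraries and KCNQ1OT1 against them. Pearson's r of log2 CPM over the 6 libraries was 0.96 between MALAT1 and NEAT1, -0.87 between MALAT1 and KCNQ1OT1 and -0.81 between NEAT1 and KCNQ1OT1. Over the 4 libraries of replicates 2 and 3 the values were 0.94, -0.72 and -0.51. For NORAD with MALAT1, r was 0.80 over 6 libraries and 0.36 over 4, and with NEAT1 it was 0.87 and 0.09. These are descriptions of 6 points that share their library totals and the replicate numbers, given with no test.

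By the same measure, over 9213 genes with a symbol and at least 10 CPM, the 3 genes most like MALAT1 included TMEM198B and WDR55 (r = 0.994 and 0.993). Those most like NEAT1 were FANCA, a Fanconi anaemia DNA repair gene, SNHG3, a host gene of small nucleolar RNAs, and ULK1, which encodes a kinase that starts autophagy (r = 0.993 each). KCNQ1OT1 was most like PTPRG, a receptor tyrosine phosphatase gene, ITPR2, which encodes a calcium release channel, and GUSBP1 (r = 0.978, 0.976 and 0.975). The 3 most like NORAD included BIRC5, which encodes survivin, and SDF4 (r = 0.999 and 0.998). How many genes reached an r of 0.9 ran from 62 for KCNQ1OT1 and 374 for MALAT1 to 862 for NEAT1 and 2471 for NORAD.

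The amplitudes of these alike genes were unlike. WDR55 had 53.9, 59.4 and 63.6 CPM in KD and 55.6, 71.5 and 58.1 CPM in NC, a range far narrower than that of MALAT1. ITPR2 had 122, 93.4 and 79.4 CPM in KD and 117, 82.6 and 104 CPM in NC, with KD replicate 3 lowest as for KCNQ1OT1.

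The next comparison set replicate 1 against replicates 2 and 3, since replicate 1 stood apart in both groups. In this contrast edgeR's quasi-likelihood test with the replicate number in the fit called 9032 of 16929 genes (53.4%), 26.8% higher in replicate 1 and 26.5% lower. Of the 4 RNAs, 1 was called: NORAD fell by 0.18 on the log2 scale in replicate 1 (SE 0.05, 95% interval -0.28 to -0.08, adjusted p 0.00361), and without KD replicate 1 its adjusted p was 0.136. At 26.5% of all genes, a lower call is common in this contrast.
MALAT1 had a log2 difference of -0.56 (SE 0.26, adjusted p 0.219), NEAT1 one of -0.85 (SE 0.22, adjusted p 0.0777) and KCNQ1OT1 one of 0.73 (SE 0.49, adjusted p 0.352), none past the threshold by the same edgeR test. Leaving out a single library of replicate 2 or 3 brought MALAT1 and NEAT1 past it, with log2 differences of -0.91 to -0.54 for MALAT1 and -1.18 to -0.85 for NEAT1, in fits with 1 residual degree of freedom per gene. KCNQ1OT1 passed it at 0.25 without KD replicate 3 and at 0.93 without NC replicate 3. These fits called 24020 to 25120 of their 31398 to 31605 tested genes, so most genes passed. NORAD passed in all of them as well, at -0.42 to -0.33. The filter on low counts was run anew for each of these fits, and genes counted mainly in replicate 1 could pass it. Their median log2 difference over the tested genes was 1.52 to 1.59, against 0.01 over the 16929 genes of the fit with all 6 libraries. KCNQ1OT1 lay below the median in these fits and above it, at 0.73, with all 6 libraries. Neither that median nor the share of calls describes the 16929 genes.

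The same directions stood within each group. In replicate 1 against the mean of replicates 2 and 3, MALAT1 was 0.714-fold in KD and 0.655-fold in NC, and NEAT1 was 0.599-fold in KD and 0.519-fold in NC. NORAD was 0.863-fold in KD and 0.9002-fold in NC. KCNQ1OT1 was 2.06-fold in KD and 1.45-fold in NC. The median of genes at or above 10 CPM was -0.16 (log2) in KD and -0.15 in NC, close to the difference of NORAD. Calls on lncRNA genes were mostly on the other side from MALAT1 and NEAT1: of 2393 tested lncRNA genes 1047 were called higher in replicate 1 and 90 lower, with a median log2 difference of 0.66.

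Reads on genes that the other libraries hardly counted bear on the low level of KCNQ1OT1. The 35510 genes with at most 3 counts in each library of replicates 2 and 3 had 7.56 counts per kb of exon in KD replicate 1 and 6.61 in NC replicate 1, against 0.255 to 0.310 in the other 4 libraries. KCNQ1OT1 had 9.93 counts per kb in KD replicate 1 and 7.32 in NC replicate 1, which is 1.31 and 1.11 times that level. In replicates 2 and 3 it had 8.97 and 3.98 counts per kb in KD and 5.28 and 9.75 in NC; the level of those genes there is low by the way they were chosen.
The exons of KCNQ1, the potassium channel gene on the other strand, gathered 90, 2 and 1 counts in KD and 47, 0 and 3 in NC. What part of the KCNQ1OT1 counts of replicate 1 has the same source as these counts was not tested. For NORAD (843 counts per kb or more), MALAT1 (6137 or more) and NEAT1 (86.8 or more) the same level is small beside the RNA's own.

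The antisense partner of MALAT1, TALAM1, had 173, 174 and 152 counts in KD and 195, 278 and 143 in NC. Per 1000 counts of MALAT1 that is 3.04, 1.61 and 1.68 in KD and 3.599, 1.86 and 1.54 in NC, so replicate 1 was highest in both groups. Its log2 fold change, KD over NC, was -0.31 and did not pass the test. Of the other entries that overlap MALAT1 or NEAT1 in the annotation, the small RNA entries on the same strand had 0 counts in all libraries, and an unnamed antisense lncRNA at MALAT1 (ENSG00000270117.2) had 21, 2 and 1 counts in KD and 21, 4 and 4 in NC.

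No tested gene within 50 kb of a member was called between KD and NC. Near MALAT1 the log2 fold change was 0.15 for LTBP3. Near NEAT1 log2 fold changes were -0.07 for SLC25A45 and -0.03 for FRMD8, and near NORAD -0.04 for CNBD2 and -0.09 for EPB41L1. None of the 5 genes that overlap KCNQ1OT1 had counts enough to be tested.

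Genes for the proteins that work with these RNAs, neighbours of KCNQ1OT1 and other lncRNAs made up 6 lists, and 0 of their members were called between KD and NC by the same edgeR test, with or without the block. All of the genes for 20 paraspeckle proteins were tested, 10 of them above 0, with a median log2 fold change of 0.00 and a range of -0.10 to 0.07. HNRNPH3 was at 0.06 and RBM14, which is needed to build paraspeckles, at -0.10. The genes for 29 nuclear speckle and SR proteins, all tested, had a median of -0.00, with 14 above 0. Among them the splicing kinase gene CLK3 was at 0.09, and U2AF1, a splicing factor gene with a near-identical copy and so an uncertain count, at -0.34 with 1.33 CPM in KD and 1.69 CPM in NC.

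Of 12 genes for parts of RNase P and for ELAC2 (RNase Z), which process the 3′ ends of MALAT1 and long NEAT1, 10 were tested and their median was 0.02. RPP38 was at 0.16 and RPP30 at -0.12. The genes for 8 Pumilio proteins and other partners of NORAD had a median of 0.02, with PUM2, a translational repressor, at -0.09 and TOP1, the DNA topoisomerase, at 0.07. All tested genes had a median of -0.00. Over the replicate numbers 1, 2 and 3 the medians of the paraspeckle list were -0.04, -0.01 and -0.00.

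Of 15 genes in and beside the KCNQ1 domain, 8 were tested, with a median of 0.01. TSSC4 was at -0.12 and OSBPL5, which encodes a lipid transfer protein, at 0.14. Of 34 other regulatory lncRNAs, 25 were tested and 7 of those lay above 0, with a median of -0.06 beside one of -0.03 for all tested lncRNA genes. MIR155HG, the host transcript of miR-155, was at -0.38 with 5.998 CPM in KD and 7.81 CPM in NC, and FTX, an X-inactivation centre lncRNA, at -0.24; neither passed the test.

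Between replicate 1 and replicates 2 and 3, where 53.4% of all tested genes were called, the lists differed in their counts. Of the paraspeckle list, 0 were called higher and 17 of 20 lower in replicate 1, among them CIRBP (-0.91) and EWSR1 (-0.58), both genes for RNA-binding proteins. Of the speckle list, 0 were called higher and 23 of 29 lower, among them SF1 (-0.70), which binds the branch point, and SRRM2 (-0.58), a speckle scaffold protein. The medians were -0.42 and -0.32 (log2), beside a median of 0.01 for all tested genes and lower calls for 26.5% of them. Genes averaging at least 10 CPM already had a median of -0.16 in KD and -0.15 in NC. MALAT1 at -0.56 and NEAT1 at -0.85 lay on the same side as these proteins' genes.

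Of the NORAD partners 6 of 8 were called lower and 1 higher, among them ALYREF (-0.58), an mRNA export factor, and KHDRBS1 (-0.45), which encodes SAM68. Of the RNase P list 3 of 10 were called lower and 0 higher (ELAC2 at -0.32, POP7 at -0.44 and RPP40 at -0.25). Of the KCNQ1 domain list 2 of 8 were called higher and 4 lower, with SLC22A18AS at 1.62 and CD81, a tetraspanin gene, at -0.43. Of the other lncRNAs 8 of 25 were called higher and 5 lower, with MIAT at 2.30 and DLEU1 at 2.34 on the high side and DANCR at -0.69 and TUG1 at -0.49 on the low side. The share of records outside annotated features, given above, moves with this contrast, and its part in these differences was not tested.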

How the data were processed

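The authors deposited, for each library, a table of raw counts by Ensembl gene ID. The submitters' processing notes name STAR 2.7.10a, HTSeq 0.11.1, FastQC 0.11.8 and DESeq2, and hg38 as the build. The sources used here do not give the annotation release or the strand setting. The 5 summary lines of each file stayed out of library sizes and tests; gene counts were 33.8% to 60.2% of records in KD and 33.5% to 59.1% in NC. Of 744 genes whose exon bases all lie within exons of the other strand, 647 had at least 1 count over the 6 libraries and 37 at least 100; counting without strand would leave such reads ambiguous.

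Of 62703 IDs, 62639 were in the name table and 58264 in GENCODE 29, which gave coordinates, gene types and exon lengths and need not be the annotation the authors counted on. From the deposited counts, edgeR 4.0.16 in R 4.3.3 was run with filterByExpr on the groups, TMM factors and a robust quasi-likelihood fit with group as the single term, Benjamini-Hochberg adjusted over all tested genes (threshold 0.05). CPM uses TMM library sizes, and log2 CPM a prior count of 2. Replicate 1 was compared with replicates 2 and 3 in the fit with group and replicate number. Alternatives were limma 3.58.1 (voom), DESeq2 1.42.0, other scalings and filters, the replicate block and left-out libraries. The code was tested on simulated data.

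Same-numbered KD and NC libraries deviated together from their group means (r = 0.889, 0.619 and 0.605 for numbers 1, 2 and 3, over genes). Each r was above the limit of 0.1, and the numbers were taken as pairs. Crossed numbers passed the limit too (0.590 for KD 2 with NC 3 and 0.553 for KD 3 with NC 2). The counts thus set replicate 1 apart and hardly separate numbers 2 and 3, whose matching rests on the sample titles. A chi-square test between libraries of 1 group gave 23.4 to 95.8 per degree of freedom, so none was taken for a copy of another, and all 6 were kept.

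The 4 members, the lists and the contrast of replicate 1 were chosen with earlier results of these data known. Named genes are the members; from each list up to 4 called genes, by smallest p, or the leading 2 where none was called; tested or overlapping genes within 50 kb; and the 3 genes with the highest r for each member. Some genes that this rule names are not reported here. Sequences are from GENCODE 29 transcripts, and motifs were searched on the sense strand with overlaps counted.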

Additional observations from a re-analysis of the deposited data

How the results depend on the processing

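The KD against NC comparison called 0 genes without a block under all other scalings and filters, limma-voom and each left-out library or replicate number, and 1 with DESeq2. With the replicate block it called 29 genes, 9 with library sizes from all records, 29 with RLE factors, 27 with DESeq2 and 30 with limma-voom, and 5 without replicate 1, 119 without replicate 2 and 73 without replicate 3. The estimates for KCNQ1OT1 and NORAD lie near 0 with all 6 libraries, and their signs turned under several alternatives. KCNQ1OT1 was at -0.0631 with library sizes from all records, -0.0173 with no filter, -0.0301 with limma-voom, and with the block -0.0143, -0.1011 (all records), -0.0097 (RLE factors) and -0.0247 (DESeq2). NORAD was at -0.0772 with all records, -0.0069 with no filter and -0.0833 with the block and all records. Leaving out libraries or replicate numbers without the block gave log2 fold changes of -0.42 to 0.15 for MALAT1, -0.58 to 0.0275 for NEAT1 (positive only without NC replicate 2), -0.39 to 0.4256 for KCNQ1OT1 and -0.0738 to 0.0761 for NORAD. The block changed no call on a member with all 6 libraries. With the block and without replicate 3, MALAT1 (-0.3439), NEAT1 (-0.4356) and KCNQ1OT1 (0.4531) passed the threshold, and NORAD was at -0.0083. For MALAT1 and NEAT1 the p-values of that fit do not measure the spread between replicate numbers. The difference of KCNQ1OT1 in replicate 3, which that fit left out, was -1.03. With the block and without replicate 2, MALAT1 was at 0.0597, KCNQ1OT1 at -0.3392 and NORAD at -0.0201, and without replicate 1 KCNQ1OT1 was at -0.1888. The median of all genes was -0.09 with all records, 0.11 without KD replicate 2 and -0.11 without NC replicate 2. In the contrast of replicate 1 with all records, MALAT1 (-1.06) and NEAT1 (-1.35) passed the threshold. The median of all genes there was -0.49. NEAT1 also passed at -1.06 with no filter (median 3.14) and at -0.86 with DESeq2. Calls were common in these fits: 11927 of 16929 genes with all records, 32322 of 56716 with no filter and 6807 of 16929 with DESeq2. NORAD passed in them too, at -0.69, -0.39 and -0.19. Left-out libraries gave -0.91 to -0.51 for MALAT1, -1.18 to -0.75 for NEAT1, 0.25 to 0.96 for KCNQ1OT1 and -0.42 to -0.16 for NORAD. The cause of these changes was not tested. The order of levels per length held in 5 of 6 libraries with the length of the short NEAT1 transcript, an alternative chosen after seeing the data, as were the block with all records, RLE factors, DESeq2 or limma-voom. With 3 libraries a group, the 95% intervals take in folds of 0.553 to 1.38 for MALAT1, 0.464 to 1.38 for NEAT1 and 0.534 to 1.91 for KCNQ1OT1. The counts do not separate the NEAT1 transcripts, cellular compartments or alleles.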

Other observations

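Of the 34 other regulatory lncRNAs, 9 had too few counts to be tested, 4 of them given here. MEG3, an imprinted lncRNA, had 170, 7 and 7 counts in KD and 151, 2 and 0 in NC. H19, an imprinted lncRNA beside IGF2, had 22, 4 and 0 counts in KD and 28, 4 and 1 in NC. AIRN, which in mouse silences the imprinted Igf2r domain, had 22, 2 and 0 counts in KD and 14, 0 and 0 in NC. HOXA-AS2, antisense to genes of the HOXA cluster, had 30, 1 and 2 counts in KD and 39, 0 and 0 in NC. These 4 lncRNAs were chosen after their values were seen, because their counts lay mostly in replicate 1. HOTAIRM1, a HOXA lncRNA that did not pass the filter either, had 12, 11 and 3 counts in KD and 3, 9 and 3 in NC, and HOTTIP had 18, 1 and 2 in KD and 14, 7 and 6 in NC.

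Among the other regulatory lncRNAs, GAS5, a host gene of small nucleolar RNAs, was highest per length at a mean of 95.4 CPM per kb over the 6 libraries, followed by DANCR at 42.6 and ZFAS1 at 41.3. The mean level of NORAD lay between GAS5 and DANCR. ZFAS1 had 86.0, 95.7 and 111 CPM in KD and 73.1, 90.3 and 99.8 CPM in NC, higher in KD in 3 of 3 replicate numbers. With the replicate block its log2 fold change was 0.15 ± 0.05 (SE), at an adjusted p of 0.725 by edgeR's quasi-likelihood test, which does not pass.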
